A study of Mus musculus with 4 samples.

Results

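The genes examined encode the proteasome, the protein-degrading complex of the cell, together with its immune form, its activators and its assembly chaperones. They were taken as the gene symbols that begin with Psm, a letter from a to g and a digit, without pseudogene symbols. The rule matched 50 of the 32285 genes in the RNA matrices of both genotypes. Of these, 49 are named for the complex or its assembly, and Psmc3ip, a factor of meiotic recombination, matched by its symbol only. The RNA came from CD45.2+ leukocytes sorted from minced and digested lungs of C57B6/J mice, profiled on 10x Genomics 3′ v3.1 chemistry. The WT group had an intact Plaur gene, which encodes the urokinase receptor uPAR, and the Plaur KO group (Plaur-/-) lacked it. Both groups were sensitized with LPS/OVA on days 0 and 7 and were exposed to aerosolized OVA on day 14, so no unchallenged mice stand beside them. The design names 8 mice per genotype. The labels do not state how many of them went into a library, and there was 1 RNA library per genotype. No difference between the libraries therefore has a replicate check, no test was run, and every interval is a 95% interval for counting error only.

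The proteasome is a barrel of 4 stacked rings, the 20S core, which is capped by a 19S regulatory particle that recognises ubiquitin-tagged proteins, unfolds them with its ATPases and feeds them into the barrel. The outer rings are made of alpha subunits and the inner rings of beta subunits, and 3 beta subunits carry the proteolytic sites: Psmb5, Psmb6 and Psmb7 in the constitutive form. Cells of the immune system, and other cells under interferon-gamma, build a form in which Psmb8 takes the place of Psmb5, Psmb9 that of Psmb6 and Psmb10 that of Psmb7. This immunoproteasome cuts proteins into peptides that fit MHC class I molecules well. PA28, a ring of Psme1 and Psme2 that is also induced by interferon-gamma, caps the core in place of the 19S particle and opens it. Dendritic cells are known for high immunoproteasome content, in keeping with their role in presenting antigen.

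In the mouse genome (GRCm38.p6, RefSeq) Psmb9, Tap1, Psmb8 and Tap2 follow one another on chromosome 17, inside the MHC class II region. Psmb9 lies at chr17:34182030-34187330, Psmb8 at chr17:34198195-34201454 and the third immune subunit, Psmb10, at chr8:105935728-105938392. Psmb5, Psmb6 and Psmb7 are on 3 other chromosomes, at chr14:54614120-54617995, chr11:70525324-70527858 and chr2:38588046-38643952, and Psme1 (chr14:55578494-55581527) and Psme2 (chr14:55587440-55591101) are neighbours on chromosome 14. The sequences below are shown because the 3 genes did not all peak in the same class. Psmb8 and Psmb9 were highest in a class of dendritic cells (cDC1), and Psmb5 was highest in alveolar macrophages, with cDC1 next. Each is the genomic sequence just upstream of the annotated start, from the RefSeq table, written 5′ to 3′ on the strand of the gene. For Psmb9 it is the whole interval of 225 bases that separates its start from that of the divergent gene Tap1, a subunit of the peptide transporter that brings proteasome products to MHC class I.
Psmb5 (chr14:54617996-54618245, minus strand): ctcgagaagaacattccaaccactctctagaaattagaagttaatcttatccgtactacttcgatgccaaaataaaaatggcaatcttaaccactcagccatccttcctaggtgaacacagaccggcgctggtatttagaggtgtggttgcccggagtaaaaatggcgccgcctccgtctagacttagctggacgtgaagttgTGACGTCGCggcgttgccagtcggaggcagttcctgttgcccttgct
Psmb8 (chr17:34197945-34198194, plus strand): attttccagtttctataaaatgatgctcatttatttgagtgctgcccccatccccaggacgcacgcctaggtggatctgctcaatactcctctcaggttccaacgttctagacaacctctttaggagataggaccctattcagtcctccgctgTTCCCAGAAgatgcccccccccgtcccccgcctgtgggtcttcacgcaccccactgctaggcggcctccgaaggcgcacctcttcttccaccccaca
Psmb9 to Tap1 (chr17:34187331-34187555, minus strand): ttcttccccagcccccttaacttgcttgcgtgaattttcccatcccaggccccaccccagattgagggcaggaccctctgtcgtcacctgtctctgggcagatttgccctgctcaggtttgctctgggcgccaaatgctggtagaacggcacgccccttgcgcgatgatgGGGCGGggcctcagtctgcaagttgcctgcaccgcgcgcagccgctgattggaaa

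The capitals mark matches to 3 motifs that were searched as letters on both strands. In the Psmb5 sequence they mark TGACNNNGC, the core of the antioxidant response element, 47 bases before the start. In the Psmb8 sequence they mark TTCNNNGAA, the gamma-activated site to which STAT proteins bind, 97 bases before the start. In the Psmb9 interval they mark GGGCGG, the GC box, 55 bases before the Psmb9 start. Such matches are common by letters alone: among 32851 promoters of 250 bases, TTCNNNGAA occurred in 7.02%, TGACNNNGC in 10.2%, GGGCGG in 32.7% and the interferon response element core (GAAA, any pair of bases, then GAAA) in 2.98%. Promoters were at hand for 42 of the 50 genes. Among those, TTCNNNGAA was found in Psmb8 and Psmg1 (4.76%), TGACNNNGC in Psmb5, Psmb6, Psmc6, Psmd12 and Psmd9 (11.9%), GGGCGG in 22 genes (52.4%) and the interferon response element core in Psmb3, Psmd4 and Psmd9 (7.14%). A match describes letters in the window and was not tied to binding or to expression.

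After filtering, 8684 cells of the WT-labelled library and 9584 of the KO-labelled library remained, with medians of 3209 and 2777.5 UMIs (unique molecular identifiers, 1 per counted RNA molecule) per cell. Members took 203629 and 212498 UMIs, which was 0.497% and 0.482% of all. The libraries had 16 cell barcode sequences in common. Clustering without the members gave 17 classes with at least 50 cells in each library, among them 10 with at least 150 in each, here called main classes. Class names come from marker genes, so that "neutrophils" stands for neutrophil-like cells and likewise for every class. In each class at least 8 markers of its own set, or 7 where the set held 7 or 8, were at least 2-fold over the other classes in both libraries, and none was at 0. The targeted gene was counted in both libraries. Plaur was at 526.6 CPM (counts-per-million, the UMIs of a gene scaled by all UMIs of the same cells) in WT-labelled and 455.3 in KO-labelled cells, with 2069 and 1256 in neutrophils. The labels do not say which part of the gene was removed, so 3′ tags need not report the deletion, and the libraries are named by their labels throughout.

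The first question was which form of the catalytic core each cell type was making. The log2 ratio of Psmb8 + Psmb9 + Psmb10 over Psmb5 + Psmb6 + Psmb7 UMIs was above 0 in every one of the 17 classes in both libraries, and it ran from near parity to more than 3-fold. Because each RNA molecule is counted once by its 3′ end, the ratio was not divided by length. It is compared between classes and is not read as a subunit stoichiometry. A ratio uses no library total, so it does not move with the normalisation.

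CCR7 dendritic cells, the migratory form that carries antigen to lymph nodes, had the highest ratio, 1.77 on the log2 scale (1.61 to 1.93) in the WT-labelled library and 1.86 (1.67 to 2.04) in the KO-labelled one, or 3.41-fold and 3.62-fold. cDC1, the dendritic cells that cross-present antigen on MHC class I, followed at 1.74 (1.64 to 1.85) and 1.62 (1.53 to 1.71). The intervals of the 2 classes overlapped in both libraries. The other dendritic cells stood lower. cDC2 were at 1.12 (1.02 to 1.22) and 1.06 (0.97 to 1.15), and plasmacytoid dendritic cells at 1.21 (0.95 to 1.47) and 1.14 (0.91 to 1.38).

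Lymphocytes filled the upper and middle part of the order. Regulatory T cells were at 1.64 (1.36 to 1.92) and 1.31 (1.03 to 1.58), but at 1.03 and 0.76 when cells over 5% mitochondrial UMIs were left out and the clustering was repeated. CD8 T cells were at 1.45 (1.31 to 1.60) and 1.29 (1.12 to 1.46), and gamma-delta T cells at 1.32 (1.05 to 1.60) and 1.48 (1.14 to 1.84). B cells (1.24 and 1.07), CD4 T cells (1.21 and 1.21), plasma cells (1.10 and 0.81) and NK cells (1.07 and 0.98) had lower ratios. Group 2 innate lymphoid cells, the tissue lymphocytes that make type 2 cytokines, had the lowest ratio of all classes at 0.11 (-0.27 to 0.49) and 0.13 (-0.21 to 0.48). Their intervals reached below 0 and rested on 124 and 150 immune-subunit UMIs.

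Myeloid cells other than dendritic cells split widely. Neutrophils had 1.38 (1.25 to 1.51) and 1.502 (1.39 to 1.61), a 2.60-fold and 2.83-fold excess of the immune subunits. Classical monocytes were at 1.13 (0.99 to 1.26) and 0.95 (0.89 to 1.00), and nonclassical monocytes at 0.69 (0.29 to 1.10) and 0.85 (0.56 to 1.15). Both macrophage classes were close to parity: alveolar macrophages at 0.28 (0.23 to 0.34) and 0.21 (0.13 to 0.30), and interstitial macrophages at 0.26 (0.20 to 0.32) and 0.29 (0.21 to 0.36). Macrophage intervals therefore lay wholly below those of dendritic cells, T cells, B cells, neutrophils and classical monocytes in both libraries.

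Neighbours in this order mostly had overlapping intervals. Of 16 neighbouring pairs, the intervals overlapped in all 16 in the WT-labelled library and in 15 in the KO-labelled library, where plasma cells stood apart from interstitial macrophages. The order was much alike in both libraries. Over the 17 classes Pearson's r between libraries was 0.957 and Spearman's rho 0.953, as a description of points that share their cell type, chemistry and 3′ tags. The ratio was lower in the KO-labelled library in 11 classes and higher in 6. Interstitial macrophages were among the higher (0.26 and 0.29), yet each of their 2 clusters was lower (0.13 and 0.11, 0.82 and 0.56), and the clusters changed shares. In 0 of 17 classes did the intervals of the libraries lie apart, but no interval of the difference was computed. Those of plasma cells (0.94 to 1.26 and 0.67 to 0.95) and classical monocytes (0.99 to 1.26 and 0.89 to 1.00) barely overlapped.

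**Figure D1:**
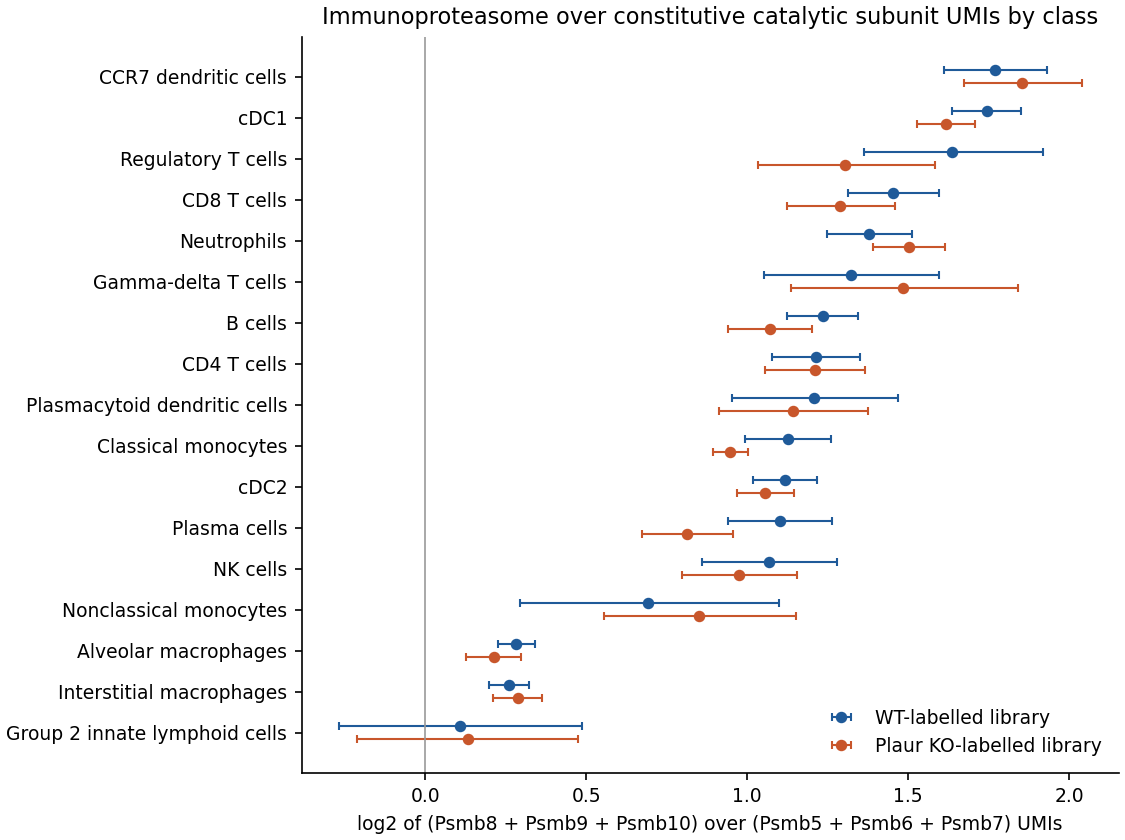
Log2 ratio of summed UMIs of Psmb8, Psmb9 and Psmb10 over Psmb5, Psmb6 and Psmb7 (horizontal axis) in 17 cell classes (vertical axis) of the WT-labelled and KO-labelled libraries; bars are 95% intervals for counting error. CCR7 dendritic cells (1.77 and 1.86) and cDC1 (1.74 and 1.62) are at the top, while alveolar macrophages (0.28 and 0.21), interstitial macrophages (0.26 and 0.29) and group 2 innate lymphoid cells (0.11 and 0.13) lie near 0.

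The same ratio can come from high immune subunits or from low constitutive ones, and the classes differed in which it was. Levels are given as CPM of the class in that library. Immune subunits summed to 1695 and 1751 CPM in cDC1 and 1398 and 1563 in CCR7 dendritic cells, in the WT-labelled and KO-labelled library, against 664 and 593 in alveolar macrophages. Constitutive subunits summed to 506 and 571 CPM in cDC1, which was close to the 546 and 512 of alveolar macrophages. The difference between these classes thus lay in the immune subunits. In neutrophils both sums were the lowest of all classes, 315 and 336 CPM for the immune and 121 and 119 for the constitutive subunits. Their high ratio went with a low constitutive sum and not with a high immune one. In group 2 innate lymphoid cells the immune sum was 557 and 590 CPM, near that of B cells (544 and 540), but the constitutive sum was 516 and 538 against 231 and 257 in B cells.

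Psmb8, the immune counterpart of Psmb5, which cuts after bulky hydrophobic residues, was highest in cDC1 at 879 CPM in both libraries. CCR7 dendritic cells followed with 741 and 789, gamma-delta T cells with 655 and 622, and cDC2 with 544 and 543. Regulatory T cells were at 536 and 497. The remaining classes lay between 269 and 461 CPM, with neutrophils alone far below at 138 and 136. From the highest to the lowest class the mean of both libraries differed by 6.43-fold.

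Psmb9, the counterpart of Psmb6, was likewise highest in cDC1 (669.5 and 713 CPM) and CCR7 dendritic cells (506 and 624). It was at 333.5 and 345 in cDC2 and at 315 and 342 in regulatory T cells. Neutrophils did not stand apart for this gene. Their 158 and 182 CPM were close to the levels of B cells (171 and 180.5), alveolar macrophages (167 and 144) and NK cells (136 and 154), and the lowest class was group 2 innate lymphoid cells with 117 and 94.3. The span over classes was 6.55-fold.

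Psmb10, the counterpart of Psmb7, followed another order. Gamma-delta T cells were highest with 232 and 309 CPM, and alveolar (175.5 and 168) and interstitial macrophages (156 and 166) were level with CCR7 dendritic cells (152 and 149.9) and cDC1 (147 and 159). Among classes other than neutrophils the range was narrow, down to 87.1 and 90.4 in B cells. Neutrophils had 18.8 and 18.2 CPM, which set the span of 14.6-fold.

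Among the constitutive subunits, Psmb5 was highest in alveolar macrophages (245 and 226 CPM), then cDC1 (195 and 221), gamma-delta T cells (182 and 196) and interstitial macrophages (186 and 182.5), and lowest in B cells (78.9 and 86.0) and neutrophils (60.9 and 59.2). Psmb6 was highest in interstitial macrophages with 315 CPM in both libraries, well above alveolar macrophages (213 and 195), and neutrophils had 19.6 and 15.8, a span of 17.8-fold. Psmb7 varied least, 3.73-fold. It was highest in group 2 innate lymphoid cells (157 and 157) and lowest in neutrophils (40.6 and 43.7), and in 14 of the classes it stayed between 60.0 and 123.5 CPM in both libraries.

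**Figure D2:**
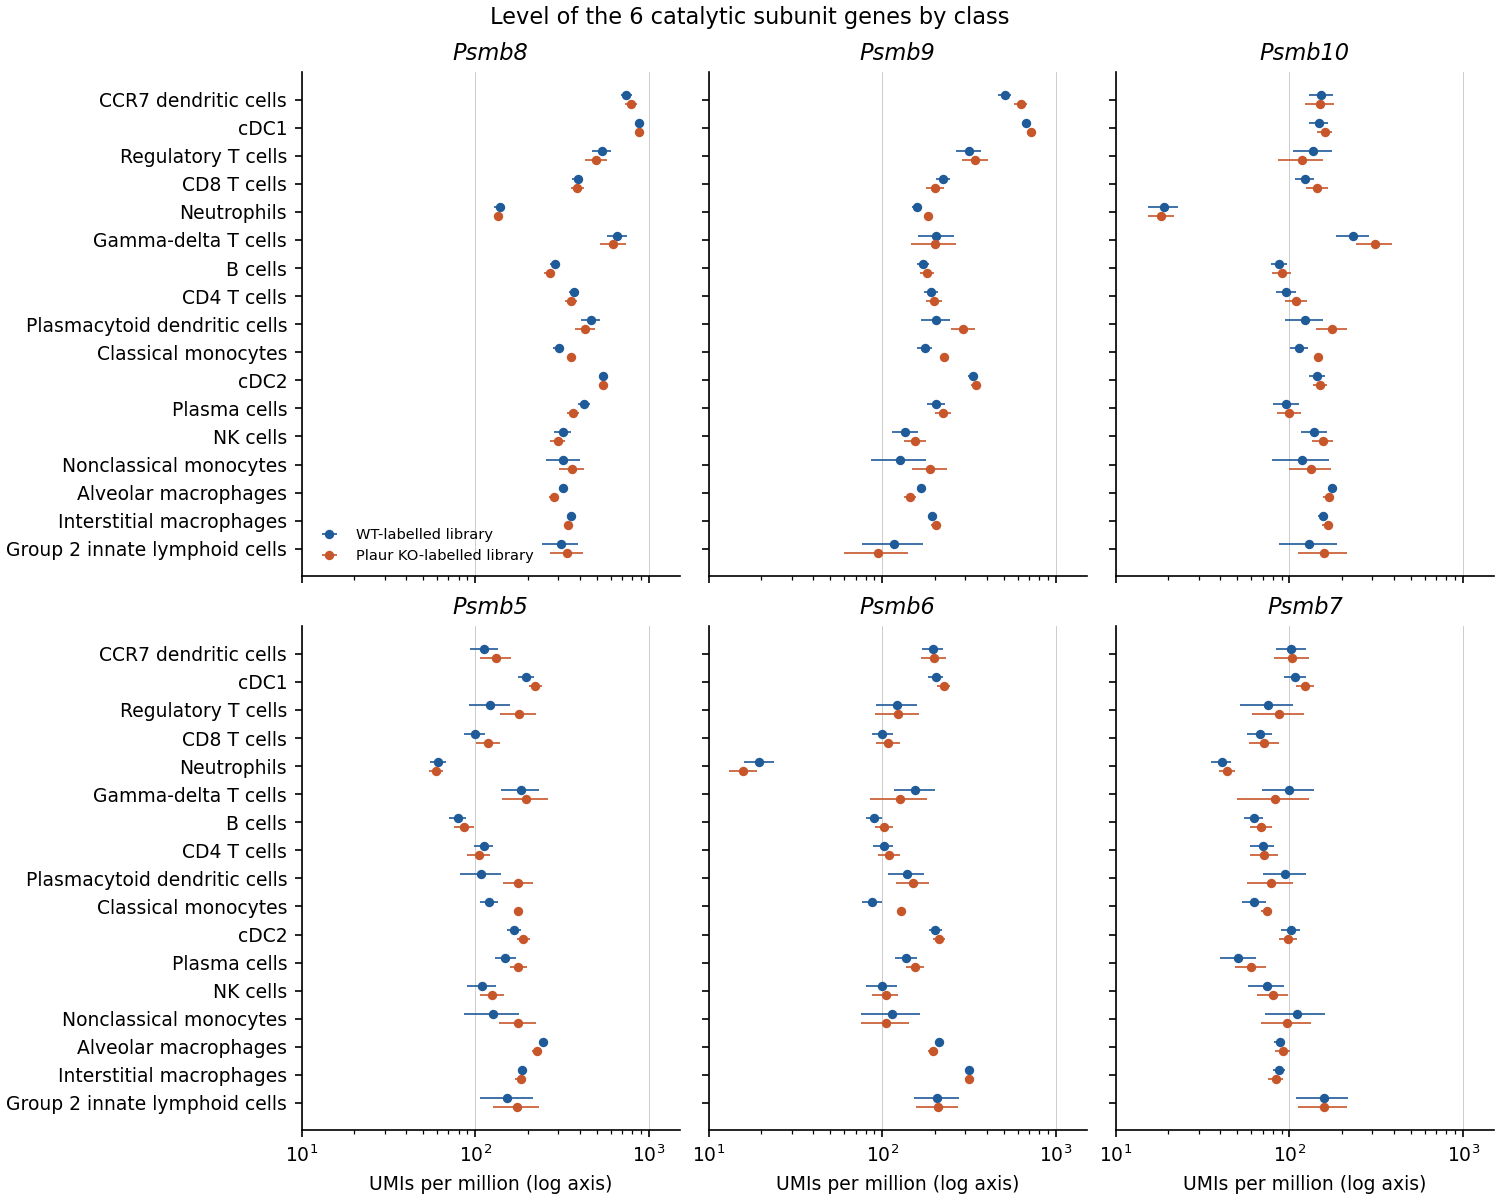
Level of Psmb8, Psmb9, Psmb10, Psmb5, Psmb6 and Psmb7 (CPM, log axis) in each cell class of the WT-labelled and KO-labelled libraries, with 95% counting intervals. Psmb8 peaks in cDC1 (879 in both libraries), Psmb6 in interstitial macrophages (315 in both), and neutrophils are lowest for 5 of the 6 genes but not for Psmb9 (158 and 182).

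Taken pair by pair, the exchange of subunits was uneven. In neutrophils Psmb9 exceeded Psmb6 by 8.09-fold in the WT-labelled library and 11.5-fold in the KO-labelled one, log2 3.02 and 3.53, the highest of any class. In the same cells Psmb10 was below Psmb7, with log2 ratios of -1.11 and -1.26, and Psmb8 over Psmb5 was at 1.18 and 1.20. Alveolar macrophages showed the reverse arrangement, with Psmb9 over Psmb6 at -0.35 and -0.44 and Psmb10 over Psmb7 at 1.00 and 0.88. Interstitial macrophages resembled them, at -0.70 and -0.63 for Psmb9 over Psmb6 and 0.83 and 0.99 for Psmb10 over Psmb7. In CCR7 dendritic cells the excess lay in Psmb8 over Psmb5 (2.72 and 2.59) and Psmb9 over Psmb6 (1.38 and 1.66), with Psmb10 over Psmb7 at 0.57 and 0.53. cDC1 had the same profile with 2.17 and 1.99, 1.72 and 1.66, and 0.45 and 0.37. Gamma-delta T cells had the highest Psmb10 over Psmb7 ratio, 1.22 and 1.90. It came from 85 and 63 cells and has no interval here, and the WT-labelled value was not far above that of alveolar macrophages.

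PA28 ran close to the immune subunits. Psme1 was at 734 and 756.5 CPM in CCR7 dendritic cells, at 662 and 738 in cDC1 and at 99.1 and 96.9 in neutrophils, 7.60-fold from highest to lowest. Psme2 was at 744.5 and 985.5 in CCR7 dendritic cells, 339 and 422 in regulatory T cells and 78.1 and 85.3 in neutrophils, a span of 10.6-fold. Their sum was the highest in CCR7 dendritic cells (1478 and 1742 CPM), ahead of cDC1 (995 and 1123). Plasma cells, which secrete antibody, had a low PA28 sum (261 and 320 CPM) beside immune subunits of 723 and 687. Psme2b is a near-identical copy of Psme2, and reads can be split between them. It was counted at 30.1 and 26.8 CPM in CD4 T cells and at 6.08 and 5.57 in NK cells.

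Across the 17 classes and both libraries (34 points, which share libraries and cell types, so that no p is given), the immune sum correlated with the PA28 sum at r = 0.91 on the log2(CPM + 1) scale. With the constitutive sum r was 0.63. The constitutive sum in turn had r = 0.91 with the sum of the remaining members. Within the immune subunits Psmb8 and Psmb9 were related at 0.75 and Psmb8 and Psmb10 at 0.70, but Psmb9 and Psmb10 at 0.18. Tap1, which shares the divergent interval with Psmb9, had r = 0.71 with Psmb9, 0.49 with Psmb8 and -0.0032 with Psmb10. Psmb9 was nearly as close to Psme1 (0.68) and Psme2 (0.67) on chromosome 14, so its relation to Tap1 was not particular to that interval. Tap2 had r = 0.64 with Psmb8, 0.54 with Psmb9 and 0.32 with Psmb10. Tap1 was high in cDC1 (280.5 and 221 CPM), CCR7 dendritic cells (277.5 and 214) and regulatory T cells (256 and 255), and neutrophils had 173 and 151.

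Outside the family, the genes whose levels were most like the immune sum over the same 34 points, among 6414 with a mean of at least 20 CPM, were Crip1 (r = 0.87), Avpi1 (0.83), Trim35 (0.82), Gnb4 (0.82), Txndc17 (0.81), Slc33a1 (0.78), Rtraf (0.78) and Ncoa7 (0.77).

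The other parts of the complex were summed by role. All 50 genes together made up 7694 and 7985 CPM in cDC1 and 7178 and 7505 in CCR7 dendritic cells, and 1830.0 and 1811 in neutrophils. The alpha ring, the gate of the barrel, accounted for 22.2% and 22.6% of member UMIs in cDC1 and 25.2% and 25.9% in alveolar macrophages. The immune subunits took 22.0% and 21.9% in cDC1 and 11.2% and 10.8% in alveolar macrophages, so the family's make-up differed more in the inducible subunits than in the gate. In the alpha ring Psma4 ranged most, from 295 and 317 CPM in cDC1 to 25.7 and 16.6 in neutrophils (14.5-fold), and Psma3 least, from 366 and 360 to 112 and 107 (3.31-fold). Among the structural beta subunits, which have no proteolytic site, the spans were 5.13-fold for Psmb1 and 3.20-fold for Psmb3.

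In the 19S particle the ATPase Psmc4 ranged from 84.1 and 81.5 CPM in cDC1 to 9.23 and 9.77 in neutrophils (8.71-fold), and the ATPase Psmc1 varied 4.30-fold. Psmd7, a lid subunit and partner of the deubiquitinase Psmd14, ranged from 103 and 94.6 in interstitial macrophages to 10.3 and 7.77 in neutrophils (10.9-fold). Psmd4, a ubiquitin receptor, varied 2.35-fold, between 166 and 110.0 in group 2 innate lymphoid cells and 63.3 and 54.1 in neutrophils. Among the chaperones that assemble the 19S base, Psmd9 varied 10.5-fold and Psmd5 3.06-fold. The highest Psmd9 level was in gamma-delta T cells, at 30.4 and 56.5. Psmg4, a chaperone of 20S assembly, had the widest span of the family, 26.7-fold, with 172 and 154 in CCR7 dendritic cells and 6.83 and 5.36 in neutrophils. Its relative Psmg1 reached 27.6 and 34.8 in gamma-delta T cells. That class held 85 and 63 cells with 361956 and 229997 UMIs of all genes, so its Psmg1 and Psmd9 levels rest on few UMIs. The narrowest was Psme4, the nuclear activator PA200, at 119 and 117.5 in B cells and 71.1 and 68.2 in CCR7 dendritic cells (1.70-fold). Psmf1, an inhibitor of the core, spanned 12.4-fold at low levels.

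Of the 50 genes, 48 had at least 100 UMIs over both libraries. The exceptions were Psma8, the alpha subunit of testis, with 42 and 44 UMIs and 3.09 and 5.68 CPM in alveolar macrophages, and Psmb11, the catalytic subunit of the thymus cortex, with 1 and 3 UMIs in all kept cells. Psmc3ip had 133 and 80 UMIs, 3.25 and 1.82 CPM over all kept cells, or -0.84 as the log2 ratio of the KO-labelled to the WT-labelled level (-1.26 to -0.43).

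Neutrophils, short-lived cells with little protein synthesis, carried the least proteasome RNA as a share of their UMIs. Of 46 members with at least 1000 UMIs, 40 had their lowest level in neutrophils (87.0%), against 37.2% of the 7691 genes with as many UMIs and 78 of 87 ribosomal protein genes (89.7%). The median log2 ratio of the neutrophil level over the median of the other 16 classes was -1.77 for members, -0.78 for all of these genes and -2.55 for ribosomal protein genes. Neutrophils also had shallow cells, with median UMIs of 1746 and 1729, against 7636 and 6509 in alveolar macrophages, and the part of depth in these levels was not tested.

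Members differed in how low they were. The 20S chaperones Psmg2 (1.30 CPM as the mean of both libraries against a median of 19.9 elsewhere, log2 -3.94) and Psmg4 (-3.52) were the farthest down, followed by Psmd7 (-3.03), Psmb6 (-3.01) and Psmb10 (-2.97). Psmb8 (-1.45), Psmb5 (-1.32) and Psmb7 (-1.03) were in between. The members closest to other classes were Psmd13, a lid subunit (-0.42), Psmb9 (-0.24, with 170 CPM against 202), Psme4 (-0.21) and Psme2b (-0.10).

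**Figure D3:**
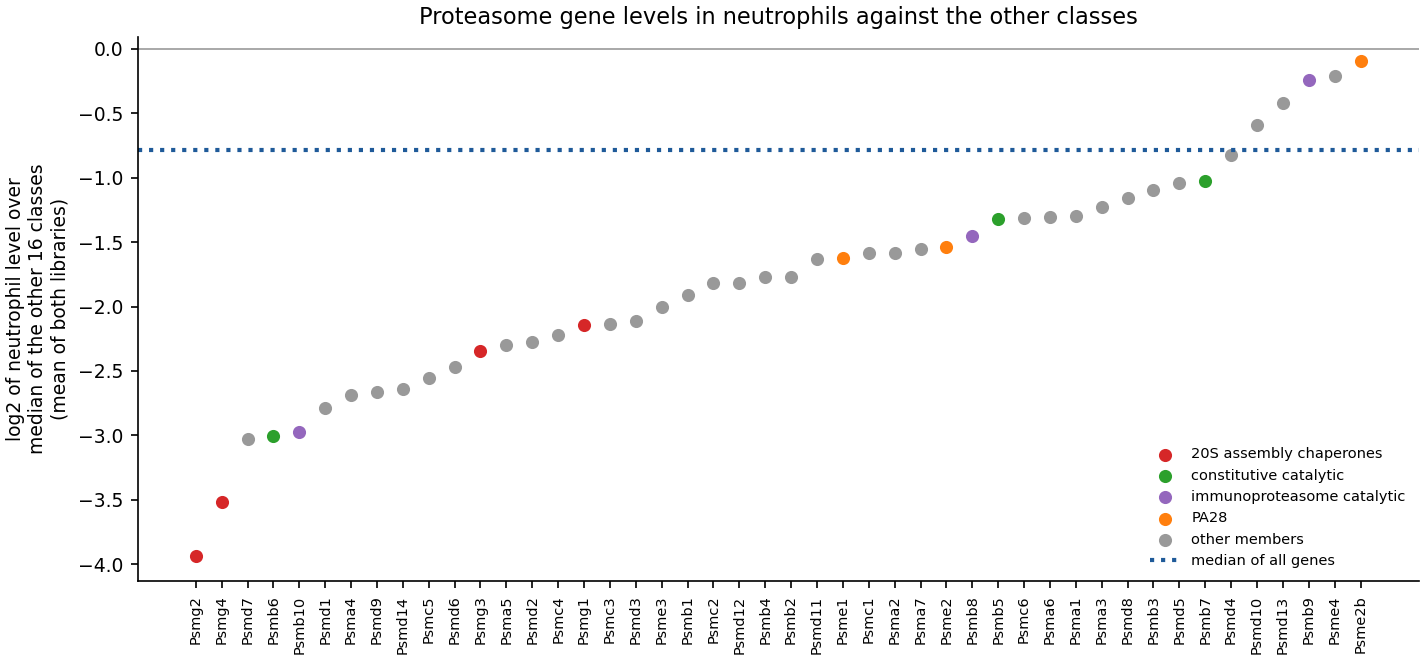
Log2 ratio of the level in neutrophils over the median level of the other 16 classes (vertical axis) for the 46 members with at least 1000 UMIs (horizontal axis), coloured by role; the dotted line is the median of all genes with as many UMIs, -0.78. Psmg2 (-3.94) and Psmg4 (-3.52) are lowest, and Psmb9 (-0.24) lies near 0, apart from Psmb6 (-3.01) and Psmb10 (-2.97).

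Within neutrophils the ratio differed between clusters at Leiden resolution 1. Clusters were made without the members, and those described library by library have at least 30 cells and 100 UMIs of the 6 catalytic genes in a library. A cluster led by F3 (tissue factor), Acod1 and Gbp5 (cluster 7) had a log2 ratio of 2.03 (1.73 to 2.34) in the WT-labelled library and 2.15 (1.86 to 2.45) in the KO-labelled one. A cluster led by Retnlg and Mmp8, genes of granule-rich neutrophils (cluster 3), had 1.12 and 1.05, and clusters 2, 4 and 5 had 1.36 and 1.36, 0.84 and 0.95, and 1.27 and 1.55. In the F3-led cluster Psmb9 was at 237 and 318 CPM against 98.9 and 114.5 in the Retnlg-led cluster. It also held the interferon-gamma response factor Irf1 at 2160 and 1578 CPM and Tap1 at 408 and 440.5. Over the other clusters Irf1 did not follow the ratio: cluster 4, with the lowest ratio, had Irf1 at 1123 and 691. The coarser resolution of 0.5 gave an F3-led cluster at 1.40 (1.25 to 1.55) and 1.58 (1.44 to 1.73) and a Retnlg-led one at 1.31 (1.05 to 1.58) and 1.38 (1.20 to 1.56), whose intervals overlapped in both libraries.

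A further cluster was led by the type I interferon genes Ifit3b, Ifit3, Ifit1 and Rsad2 (cluster 26). It held 138 cells of the KO-labelled library, 4.17% of its neutrophils, and 9 cells (0.396%) of the WT-labelled one. In the KO-labelled library its log2 ratio was 2.72 (2.09 to 3.40), with Psmb8 at 297 CPM, Psmb9 at 253 and Irf1 at 374, while Psmb6 was counted once. In the WT-labelled library the 9 cells gave 11 immune and 4 constitutive UMIs, too few for a comparison (1.46, -0.30 to 3.57). Without this cluster the neutrophil ratios were 1.38 and 1.45, so it moved the value of the KO-labelled library from 1.502 and left that of the WT-labelled library as it was.

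Of the other classes described here, only interstitial macrophages had clusters whose intervals lay apart in both libraries. Interstitial macrophages led by Gpnmb and Trem2 had ratios of 0.13 and 0.11 with Psmb6 at 364.5 and 404 CPM, whereas those led by Ccl8, Ccl12 and Pf4 had 0.82 and 0.56 with Psmb6 at 156 and 214. The first made up 68.1% of the class in the WT-labelled library and 44.3% in the KO-labelled one. CD8 T cells led by Ifng and Lag3, an effector profile, had 1.63 (1.43 to 1.83) and 1.32 (1.06 to 1.58). Those led by Dapl1 had 1.27 (1.07 to 1.475) and 1.27 (1.05 to 1.49), so the intervals overlapped in both libraries. Among CD4 T cells the cluster with the higher immune sum had the lower ratio, with intervals apart in the KO-labelled library only. The cluster led by Tnfsf8 and Cd40lg had 1.13 (0.97 to 1.29) and 1.01 (0.82 to 1.20), with an immune sum of 775 and 747.5 CPM. The cluster led by Igfbp4, Lef1 and Tcf7, genes of naive T cells, had 1.42 (1.17 to 1.69) and 1.60 (1.32 to 1.88) with an immune sum of 492 and 558. B cells led by Fcrl5 and Zbtb32 had an immune sum of 906.5 and 789 CPM and ratios of 1.48 (1.28 to 1.69) and 1.26 (1.01 to 1.51). The main B cell cluster had 1.20 (1.04 to 1.36) and 1.04 (0.84 to 1.24), and the intervals overlapped in both libraries. A further B cell cluster, led by Agbl1 and Cecr2, had 0.91 (0.67 to 1.16) and 0.93 (0.67 to 1.18). Its interval lay apart from that of the Fcrl5-led cluster in the WT-labelled library only. The cycling clusters fall below the minimum of 30 cells in a library and are given over both libraries. Cycling T cells (17 and 29 cells) had a ratio of 0.62 (0.37 to 0.86), 0.77 and 0.46 by library, with members at 6807 CPM in all. Cycling alveolar macrophages (18 and 19 cells) were at 0.39 (0.10 to 0.69), 0.19 and 0.62 by library.

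**Figure D4:**
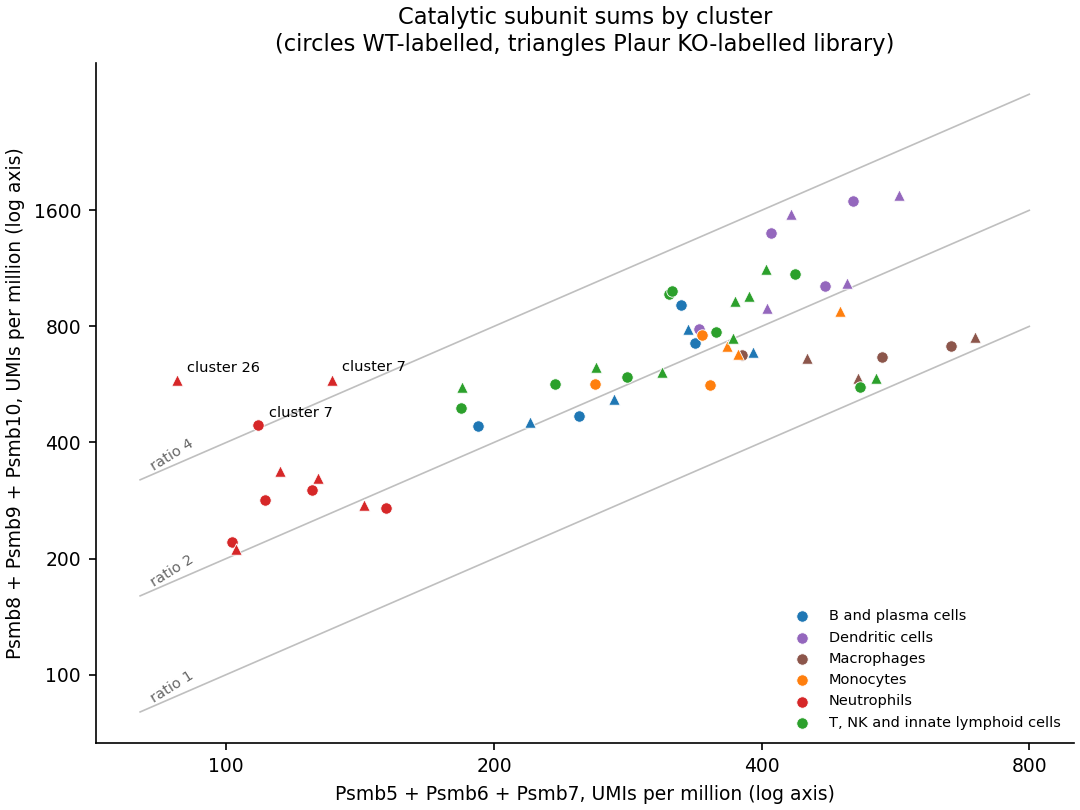
Summed immune subunits (Psmb8, Psmb9, Psmb10; vertical axis) against summed constitutive subunits (Psmb5, Psmb6, Psmb7; horizontal axis) in each cluster, CPM on log axes, with circles for the WT-labelled and triangles for the KO-labelled library and lines at ratios of 1, 2 and 4. The neutrophil clusters lie lowest on the horizontal axis, and clusters 7 and 26 lie above the line of 4, the latter in the KO-labelled library.

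The second question was whether the family differed between the genotypes. Over the 17 classes, 0 immune sums and 0 constitutive sums were past 1.5-fold in either direction, which is the fold used here to call a difference. Other settings put 3 of these sums past it: the constitutive sum of classical monocytes (0.83 with cells thinned to 1000 UMIs, 0.60 with TMM and 0.59 with DESeq2 factors), that of regulatory T cells (0.83 when thinned, from 0.29) and the immune sum of group 2 innate lymphoid cells (0.60 with each library clustered alone, from 0.08). The clearest shift was in classical monocytes, where in the KO-labelled library the constitutive sum was 378 against 270 CPM, a log2 ratio of 0.49 (0.37 to 0.61). The immune sum there was 729 against 590 (0.31, 0.23 to 0.39) and the PA28 sum 447 against 351 (0.35, 0.25 to 0.46). Alveolar macrophages went the other way by a little: the immune sum was 593 against 664 CPM (-0.16, -0.23 to -0.09) and PA28 520 against 577 (-0.15, -0.23 to -0.08). In CCR7 dendritic cells PA28 was 1742 against 1478 (0.24, 0.13 to 0.35) and in plasma cells 320 against 261 (0.29, 0.10 to 0.49). cDC1 and interstitial macrophages had PA28 log2 ratios of 0.17 (0.09 to 0.26) and 0.15 (0.07 to 0.23). With each cell thinned to 1000 UMIs the latter was -0.000506, so its direction was not kept.

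Gene by gene, a member was called in a main class when it was past 1.5-fold with at least 100 UMIs over both libraries, and the same was counted over all genes with as many UMIs. In B cells 0 of 46 measured members were called, where 2.57% of all genes were. In alveolar macrophages 0 of 47 were called against 3.22% of all genes, in interstitial macrophages 0 of 47 against 6.76%, in CD8 T cells 0 of 40 against 4.52%, in cDC2 0 of 44 against 6.43% and in cDC1 0 of 42 against 4.18%. Neutrophils had 1 of 41 called against 9.1%, NK cells 1 of 35 against 3.92% and CD4 T cells 2 of 43 against 2.59%. Classical monocytes had 3 of 47 called, all higher, against 11.3%. In the direction of those 3 members, 4.7% of all genes were called there, against 6.38% of the members. Counts of 0 to 3 leave the order of such shares uncertain, and no test compared them.

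The members leaned most to one side in 2 classes. In classical monocytes 44 of 47 measured members were higher in the KO-labelled library, with a median log2 ratio of 0.31 where the median of all genes was -0.03. In alveolar macrophages 38 of 47 were lower, with a median of -0.09 where all genes had -0.01. In the other 8 main classes the median of the members lay between -0.04 and 0.06. In neutrophils 17 members were higher and 24 lower by CPM (median -0.04, as for all genes). On the scale of edgeR's TMM factors, which shifts neutrophil ratios up by 0.11, 27 were higher and 14 lower and 2 were called, against 8.87% of all genes, so the direction of neutrophil members depends on the scale. With DESeq2's size factors (a shift of 0.12) the split was also 27 to 14, with 8.85% of all genes called.

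**Figure D5:**
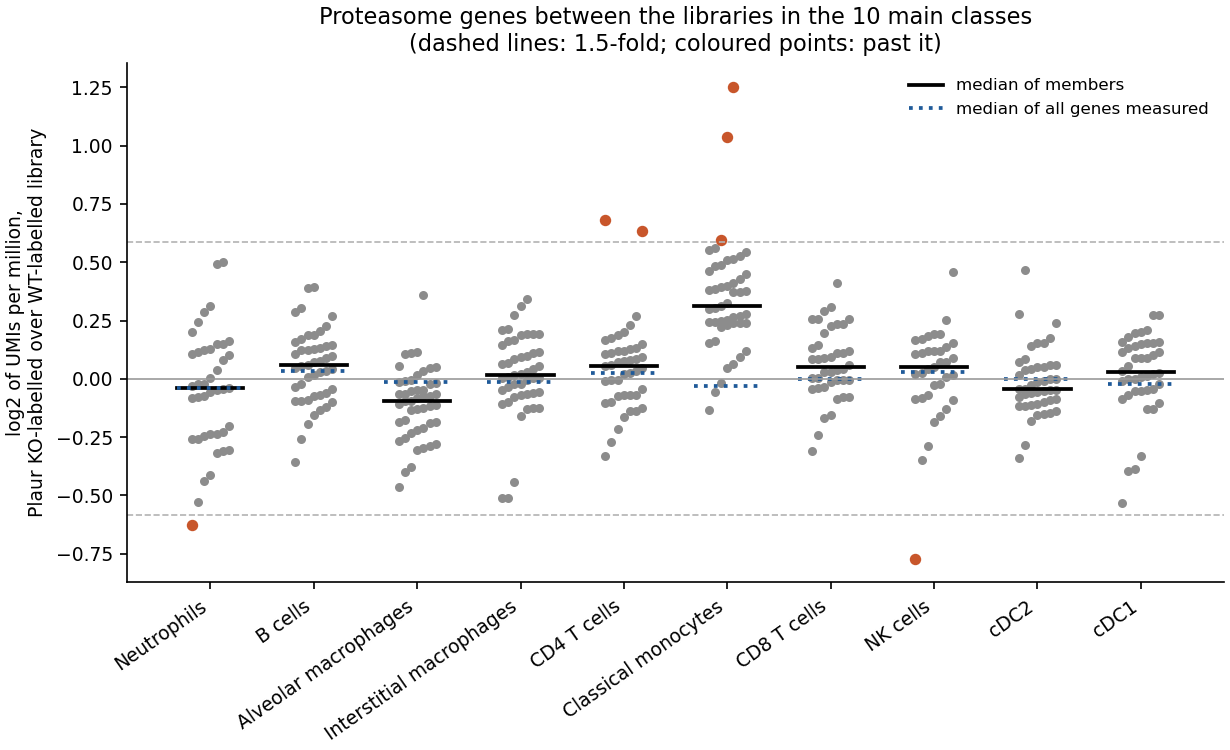
KO-labelled over WT-labelled level as a log2 ratio of CPM (vertical axis) for each member with at least 100 UMIs in 10 main classes (horizontal axis); dashed lines mark 1.5-fold, solid black bars the median of the members and blue dotted bars the median of all genes, and coloured points are past the fold. In classical monocytes the members sit at a median of 0.31 against -0.03 for all genes, and in the other classes they centre close to 0.

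In classical monocytes the median was above 0 in every role measured, though near 0 for the activators and inhibitor outside PA28. The alpha ring had a median log2 ratio of 0.46 with 7 of 7 measured members higher, the structural beta subunits 0.32 (4 of 4), the constitutive subunits 0.54 (3 of 3) and the immune subunits 0.37 (3 of 3). The ATPases had 0.28 (6 of 6), the other 19S subunits 0.25 (10 of 11), the 19S chaperones 0.31 (3 of 3) and the 20S chaperones 0.80 (4 of 4). PA28, counted here with Psme2b, had 0.22 (2 of 3, with Psme2b the lower one), and the remaining activators and the inhibitor 0.07 (2 of 3). The 3 called members were the 20S chaperones Psmg3, at 9.24 CPM in the WT-labelled library and 22.0 in the KO-labelled one (1.25, 0.63 to 1.94), and Psmg1, at 6.43 and 13.2 (1.04, 0.29 to 1.88), and the large 19S scaffold subunit Psmd1, at 31.3 and 47.4 (0.60, 0.25 to 0.96).

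Among the catalytic subunits of classical monocytes, Psmb6 was at 87.1 and 129 CPM (0.56, 0.36 to 0.78) and Psmb5 at 120.1 and 175 (0.54, 0.37 to 0.73). The immune subunits differed less: Psmb9 was at 175 and 227 (0.37, 0.23 to 0.53), Psmb10 at 113 and 146.5 (0.37, 0.19 to 0.56) and Psmb8 at 301 and 355 (0.24, 0.12 to 0.35). Psme2 was at 138.5 and 199 (0.53, 0.36 to 0.69). With TMM factors, which shift monocyte ratios by 0.12, 11 members were called and 46 of 47 were higher, where 12.2% of all genes were called. The DESeq2 factors gave 10 called members against 11.8% of all genes. As shares of the 47 these were 23.4% and 21.3%, above all genes, whereas by CPM the 3 called members were 6.38%, below the 11.3% of all genes.

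The shift was present in each of the 2 monocyte clusters. In cluster 6 (192 and 685 cells) 42 of 45 measured members were higher, with a median of 0.35 and 4 called against 12.5% of all genes. In cluster 20 (60 and 177 cells) 26 of 30 were higher with a median of 0.30, and 6 of the 30 were called against 12.8% of all genes, a larger share. Markers moved with it too. All 10 markers of classical monocytes were higher in the KO-labelled library (6751 CPM summed against 9317), and so were 7 of 12 neutrophil markers (38770 against 49050, a set that also went from 104300 to 128800 in neutrophils). The interstitial macrophage set was lower in sum (1720 against 729.5), with 9 of its 14 genes higher. Of the alveolar macrophage set 1 of 13 was higher, and of the T cell set 0 of 12. Median UMIs per cell were 7976 and 8670, and the number of cells was 252 and 862. The part of these differences in the member shift was not tested.

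In neutrophils the called member was Psma4, an alpha subunit, at 25.7 CPM in the WT-labelled library and 16.6 in the KO-labelled one (-0.63, -0.99 to -0.27). Psma7, another alpha subunit, was at 117 and 99.6 (-0.24) and the structural subunit Psmb3 at 84.2 and 70.3 (-0.26). Psmb9 was at 158 and 182 (0.20, 0.08 to 0.33), whereas Psmb8 and Psmb10 were level. Within the F3-led cluster 10 of 11 measured members were higher in the KO-labelled library, with a median of 0.28 and 0 called against 9.82% of all genes. That cluster made up 19.8% of neutrophils in the WT-labelled library and 12.4% in the KO-labelled one.

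Among lymphocytes, the members called in CD4 T cells were the ATPase Psmc3, at 57.9 and 89.7 CPM (0.63, 0.29 to 0.98), and the 19S chaperone Psmd5, at 21.1 and 33.8 (0.68, 0.10 to 1.27). In NK cells Psmd7 was called lower, at 63.8 and 37.4 (-0.77, -1.35 to -0.20). In B cells Psmg4 was at 69.9 and 91.9 (0.39, 0.14 to 0.64) and Psme2 at 99.5 and 123 (0.30), while the deubiquitinase Psmd14, which strips ubiquitin from substrates, was at 137.5 and 115 (-0.26). These were below the 1.5-fold line.

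Macrophages and dendritic cells had no called member. In alveolar macrophages the members farthest below 0 by the interval bound nearest 0 were 19S subunits: Psmd1 at 109 and 83.0 CPM (-0.40, -0.58 to -0.22), Psmd8 at 146 and 118 (-0.31) and Psmd14 at 116 and 94.9 (-0.29). The lowest ratio itself was that of the 19S chaperone Psmd9, at 27.9 and 20.3 (-0.46, -0.85 to -0.09). There 0 of 6 ATPases, 0 of 3 19S chaperones, 0 of 4 structural beta subunits and 0 of 3 immune subunits were higher in the KO-labelled library. In interstitial macrophages Psmd8, a lid subunit, was at 263 and 184.5 (-0.51, -0.63 to -0.39). Within the Gpnmb-led and Ccl12-led clusters taken alone its ratios were -0.28 and -0.19, smaller than for the class, whose 2 clusters changed shares. Psme2 was at 241 and 292 there (0.27, 0.17 to 0.38) and Psma7 at 271 and 313 (0.21). In cDC1 Psme2 was at 333 and 385 (0.21), and Psmd4, Psme4 and the ATPase Psmc6 were at 130.2 and 99.1 (-0.39), 84.6 and 64.8 (-0.39) and 102.5 and 81.5 (-0.33). In cDC2 Psma7 was at 437 and 487 (0.15), Psma5 at 135 and 159 (0.24) and Psmd14 at 149 and 118 (-0.34).

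A few members are given across the main classes, chosen after their values were seen and by small differences. Psme3, the nuclear PA28 gamma activator, was higher in the KO-labelled library in 9 of 9 main classes with 100 UMIs (median 0.23, range 0.11 to 0.39), but in 0 of them did the interval exclude 0, and in NK cells, below 100 UMIs, it was at -0.31. Psmb8 was lower in 8 of 10 main classes, while Psmb9, Psmb10, Psmb6 and Psmb7 were each higher in 8 of 10. Psmd7 was lower in 8 of 10. The interval lay below 0 in 4 classes for Psmd4 and in 3 for Psmd14, and above 0 in 4 classes for Psma7 and for Psme2, each of which also had 1 class with the interval below 0 (neutrophils for Psma7, alveolar macrophages for Psme2). How many of all genes have such counts was not computed. Over all kept cells Psma7 was at 268.5 and 327 CPM (0.28, 0.25 to 0.32) and Psmd14 at 104 and 83.2 (-0.32), values that also carry the differing shares of the classes.

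Genes around the proteasome were taken from fixed lists and read with the same call, so the shares of all genes given above apply. Of 20 partners of the proteasome outside the symbol rule, 15 were measured in neutrophils, where Ddi2, the protease that activates the proteasome gene regulator Nfe2l1, was called higher (29.4 and 52.2 CPM) and Txnl1 (37.5 and 20.2) and the ubiquitin shuttle Rad23b (15.9 and 9.91) were called lower. Sem1, a small lid subunit, was at 826 and 1115 CPM in neutrophils (0.43) and 1009 and 1387 in classical monocytes (0.46). In the monocytes Pomp, the chaperone of beta-ring maturation, was at 257 and 327 (0.35), and of 18 measured partners 8 were higher and 10 lower with 1 called lower. In CD8 T cells 15 of 16 partners were higher with a median of 0.15 and 0 called. Of the 6 genes of ubiquitin and its E1 enzymes, 0 were called in each of the 10 main classes.

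Genes of MHC class I peptide loading did not lean the way of the members in classical monocytes. There 4 of 15 genes were higher and 11 lower, with 0 called. This lean was not particular to monocytes: 12 of 14 genes were lower in neutrophils, 12 of 15 in alveolar macrophages and 11 of 15 in cDC1. In interstitial macrophages and cDC2 9 of 15 were lower. CD4 T cells (7 higher, 8 lower), CD8 T cells (8 and 7) and NK cells (7 and 7) were near even. H2-Q7, a nonclassical MHC class I gene, was called lower in neutrophils (46.0 and 22.5 CPM) and in interstitial macrophages (378 and 247), and Tap2 was called higher in NK cells (61.8 and 93.8). In B cells 13 of 15 genes were higher, with 0 called.

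In classical monocytes and neutrophils, the called genes of interferon-gamma signalling and of its induced list were lower in the KO-labelled library, apart from Gbp8 in neutrophils. Ifng itself was at 286 and 167 CPM in CD8 T cells, 194 and 134 in NK cells and 66.9 and 36.7 in CD4 T cells. The Ifng-led CD8 cluster was 44.7% of that class in the WT-labelled library and 34.9% in the KO-labelled one. Within it alone Ifng was at 640 and 443 CPM (-0.53, -0.77 to -0.30), below the 1.5-fold line, and in the Dapl1-led cluster at 41.1 and 29.3 (-0.49, -1.22 to 0.21). Irf1 was at 674 and 271 in classical monocytes (-1.31), at 1118 and 579 in neutrophils (-0.95) and at 105 and 68.1 in B cells. Of 12 measured interferon-gamma induced genes, 5 were called lower and 0 higher in classical monocytes, against 6.57% and 4.7% of all genes. Among the 5 were the checkpoint ligand Cd274 (473.5 and 217) and the chemokines Cxcl9 (83.5 and 37.0) and Cxcl10 (493.5 and 250.5). In neutrophils 2 of 10 were called lower, Cxcl10 (617 and 337) and Cd274 (787 and 460.5), against 6.01% of all genes called lower. Beside these genes, Psmb8, Psmb9 and Psmb10 were higher in classical monocytes, as given above. In the other main classes few genes of either list were called, 0 to 3 in each direction.

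The type I interferon list leaned the other way in the same cells. In neutrophils 14 of 21 measured genes were called higher and 0 lower, with a median log2 ratio of 0.65, against 3.09% of all genes called higher. Ifit1 was at 25.1 and 72.7 CPM, Ifit3 at 14.2 and 39.2 and Ifit3b at 8.49 and 30.1. These genes lead cluster 26, which was 0.396% of the neutrophils of the WT-labelled library and 4.17% of those of the other. Without that cluster 8 of 20 genes were called higher, against 2.84% of all genes, with a median of 0.55, Ifit1 at 23.5 and 45.6 CPM and Isg15 at 274 and 384 (0.49, from 0.64 with it). In classical monocytes 6 of 22 were called higher and 1 lower, against 4.7% and 6.57% of all genes, with Isg15 at 178 and 321, Rtp4 at 85.1 and 153 and Rsad2 at 60.2 and 114. In interstitial macrophages 6 of 20 were called lower and 0 higher, against 3.74% of all genes called lower, with Rsad2 at 52.8 and 26.4, Usp18 at 17.8 and 7.85 and Ifih1 at 99.6 and 64.8. In the Gpnmb-led cluster alone 5 of 19 were called lower, against 3.75% of all genes, and in the Ccl12-led cluster 1 of 12, against 2.33%. Immune subunits of interstitial macrophages stayed level beside them, at 704 and 709 CPM.

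Genes of secretory and unfolded protein load were mostly higher in the KO-labelled library in 7 of the 10 main classes. In interstitial macrophages 5 of 11 were called higher, among them the endoplasmic reticulum chaperones Hspa5 (521.5 and 922 CPM), Manf (159 and 257) and Pdia4 (67.2 and 112), and 1, Ddit3, was called lower. Of all genes in these cells, 6.76% were called in either direction and 3.74% were called lower. The clusters of this class changed shares, the Gpnmb-led one from 68.1% to 44.3%. In that cluster alone 1 of 11 was called higher, Hspa5 (422 and 643, 0.61), against 1.59% of all genes, and in the Ccl12-led one 1 of 11, Pdia4 (91.0 and 141, 0.63), against 2.89%. In classical monocytes 3 of 11 were called higher and 0 lower, against 4.7% and 6.57% of all genes: Manf (62.6 and 139), Hsp90b1 (227 and 371) and Sdf2l1 (34.5 and 60.1). In B cells 11 of 11 were higher with a median of 0.32, in alveolar macrophages 10 of 11 (0.25), in cDC2 9 of 11 (0.19) and in NK cells 8 of 9 (0.20), with 0 called in these 4 classes. In CD4 T cells 7 of 10 were higher (0.19), with 2 called lower.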

How the data were processed

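Lung leukocytes of both genotypes were profiled by 10x 3′ v3.1 RNA sequencing. The authors deposited UMI counts per gene and called cell barcode, not normalized, which per the file headers came from Cell Ranger 7.0.0. The submitters' processing notes list versions 7.0.0 and 7.1.0 and the mm10 build. The antibody tags were not used here. Barcodes under 200 genes or over 10% mitochondrial UMIs were left out (80 of 9024 WT-labelled and 61 of 10102 KO-labelled), and doublets called by Scrublet in scanpy 1.11.5 (expected 8%) were removed, 260 (2.91%) and 457 (4.55%). Totals were 42913843 and 47442215 UMIs. Both libraries were clustered together without the members (3000 variable genes, 30 principal components, 15 neighbours, Leiden resolution 1), which gave 33 clusters. A cluster was named when at least 3 markers of 1 of 25 sets were found in at least 20% of its cells at 2-fold or more over other cells. UMIs were summed per class and library. Ratios have exact conditional binomial intervals at 95%. The method was tried on simulated Poisson counts, the counting error that the interval assumes. Such counts hold no spread between cells or animals, so the trial checks the calculation only.

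Named are Psmb5 to Psmb10, Psme1, Psme2 and Psmc3ip, per main class up to 3 members each way by the interval bound nearest 0, the widest and narrowest member of each role over classes, up to 3 genes each way per described list and the 8 genes most like the immune sum. Other genes named, such as Psme3, Psmg2, Psmd13 and those that lead a cluster, were chosen after their values were seen. The members and lists were chosen with earlier results of these data known. Symbols were placed in the genome through a RefSeq table of GRCm38.p6. Alternatives were other cell filters, resolution 0.5, doublet calls kept, separate clustering of the libraries, members allowed among clustering genes, cells thinned to 1000 UMIs, clusters weighted alike, the 1% of cells with most UMIs left out, TMM factors (edgeR 4.0.16), DESeq2 1.42.0 size factors, other totals and other UMI minimums. edgeR and DESeq2 gave scaling factors only. The software was R 4.3.3 and Python 3.11.15 with pandas 2.3.3, matplotlib 3.10.9, python-igraph 0.11.9, scikit-learn 1.9.0, SciPy 1.17.1 and NumPy 2.4.6.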

Additional observations from a re-analysis of the deposited data

How the results depend on the processing

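With 1 library per genotype, values were compared by their intervals for counting error, which hold no spread between animals. No paired analysis was possible because each genotype had 1 RNA library and no result came from a test. Few values were ever past 1.5-fold, so the following count of 0 was nearly given and is no check of stability. In the main setting 0 immune and 0 constitutive sums were past it. Under other settings 5 of 576 values of a sum were, and counts of members have no sign. Across 903 combinations of a result and an alternative setting, 0 values past 1.5-fold changed sign. Smaller differences did: of 576 values of a sum between the libraries under another setting, 40 had the opposite sign, 3 of them for sums whose interval had excluded 0 (interstitial macrophage PA28, 0.15 to -0.000506, and the CCR7 dendritic cell immune sum, 0.16 to -0.0984, both when thinned, and regulatory T cell PA28, 0.26 to -0.0202 with each library clustered alone). Of the 579 that concern class ratios, sums and counts, 524 stayed within the interval or within 1.5 times the count and 55 moved. Allowing the members among the clustering genes, totals without mitochondrial, ribosomal and haemoglobin genes, leaving out the 1% of cells with most UMIs, neutrophils without the interferon-led cluster and monocyte cluster 6 alone moved 0 of these values each. The last 2 settings, monocyte cluster 20 alone and the lists within single clusters were chosen after seeing the data.

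Thinning each cell to 1000 UMIs moved most values, and left out 107 WT-labelled and 177 KO-labelled neutrophils, 2 and 24 classical monocytes, and 39 and 8 cDC2. The immune over constitutive log2 ratio became 1.55 in WT-labelled neutrophils, 1.07 and 0.91 in WT-labelled and KO-labelled B cells, 0.21 in WT-labelled alveolar macrophages, 0.34 in WT-labelled interstitial macrophages, 1.44 and 1.503 in CD4 T cells, 1.45 and 0.83 in classical monocytes and 1.00 and 0.83 in cDC2. Between the libraries (KO-labelled over WT-labelled), the thinned log2 ratio was 0.19 for the neutrophil constitutive sum and 0.11 for the B cell immune sum. In alveolar macrophages it was -0.25 (immune), -0.19 (constitutive) and -0.0701 (PA28), in interstitial macrophages -0.000506 (PA28), and in classical monocytes 0.21 (immune), 0.83 (constitutive) and 0.23 (PA28).

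With TMM factors the neutrophil immune sum was at 0.20 and that of classical monocytes at 0.42, with PA28 at 0.46, and 2 neutrophil and 11 monocyte members were called. With DESeq2 factors the immune sums were at 0.21 and 0.41. Weighting clusters alike gave interstitial macrophages a WT-labelled ratio of 0.48 and a constitutive difference of 0.17. At most 5% mitochondrial UMIs gave CD4 T cell ratios of 1.39 and 1.47 and regulatory T cell ratios of 1.03 and 0.76, and at least 500 genes per cell gave CCR7 dendritic cells 2.03 and 2.09. Resolution 0.5 gave 1.63 in WT-labelled CD8 T cells and 1.31 and 1.22 in cDC2. The CD8 cluster there was led by Cd8a, Ifng and Lag3 and held 250 and 138 cells, against 586 and 435 in the main setting. The cDC2 cluster was led by Fscn1, Cd209a, Gfra2 and Ccl22 and held 530 and 532 cells, against 379 and 390. These 2 classes thus did not hold the same cells as in the main setting. Clustering each library alone gave cDC2 ratios of 1.30 and 1.18, with differences of 0.16 (immune), 0.28 (constitutive) and -0.20 (PA28), and -0.0385 for the cDC1 immune sum. The cause of these moves was not tested.

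Counts of called members were small and moved with the minimum. At 20 UMIs 2 were called in neutrophils, 1 in alveolar macrophages, 4 in CD4 T cells, 1 in CD8 T cells, 1 in cDC2 and 2 in cDC1. With no minimum the counts were 3 in neutrophils, 1 in alveolar macrophages, 4 in CD4 T cells, 5 in classical monocytes, 2 in CD8 T cells, 1 in cDC2 and 3 in cDC1, where more genes of few UMIs entered. The shares of all genes given above are for at least 100 UMIs and do not apply to these lower minimums. The counts at them therefore have no share of all genes beside them and are not read as a result. Keeping doublet calls gave 1 in cDC2, and monocyte cluster 20 alone gave 6.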
